A study of Mus musculus with 47 samples.

Results

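The genes Arntl, Clock and Npas2 encode BMAL1, CLOCK and NPAS2, the activating transcription factors of the mammalian circadian clock. They were taken as the rows of the deposited expression table whose Ensembl identifiers carry these 3 symbols, so the group holds 3 of 13500 genes, and all 3 are described here. BMAL1 binds DNA as a dimer with CLOCK or with its close relative NPAS2, and the dimer switches on the period (Per), cryptochrome (Cry), Nr1d1, Nr1d2 and Dbp genes. PER and CRY proteins then inhibit the dimer, and the nuclear receptors REV-ERB (Nr1d1, Nr1d2) and ROR repress and activate transcription of Arntl. In skeletal muscle this loop drives daily cycles of genes for metabolism and of the output factors DBP, TEF and HLF.

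The study profiled tibialis anterior, a fast shin muscle, in 47 female C57BL/6 mice by RNA sequencing, with 1 library per mouse, to ask how adrenal hormones and the clocks of brain and muscle set muscle gene expression. RE-RE mice were Bmal1(stopFL/stopFL), with a stop cassette that blocks Bmal1 until Cre removes it. They carried 1 transgenic copy each of Syt10-Cre, for the brain, and of Hsa-Cre, for skeletal muscle fibres. Other cells of the muscle, such as fibroblasts and vessel cells, carry no Cre driver meant to restore the gene. RE-RE mice had adrenalectomy (ADX) or sham surgery. Wild-type (WT) mice had ADX with later injections of the glucocorticoid drug dexamethasone at 5 mg/kg (ADX+DEX), ADX with adrenaline at 0.5 mg/kg (ADX+ADR), ADX and no hormone, or sham surgery. The hormones were injected intraperitoneally for 10 days at ZT12, and the labels place collection 2 weeks after treatment. ADX mice drank saline with glucose, and all were fed freely. Each of the 6 conditions was sampled at ZT12 and at ZT0, where ZT is the time in hours after lights on. The 12 groups held 4 mice each, except WT ADX at ZT0 with 3. By age, RE-RE ADX mice spanned 8 to 18 weeks and RE-RE sham mice 9 to 14 weeks. WT ADX+DEX mice spanned 11 to 14 weeks, the adrenaline group 13 to 14 weeks, the ADX group without hormone 12 to 17 weeks and WT sham mice 9 to 12 weeks. Mice that kept the Bmal1 block, and mice injected with vehicle only, were not analysed here, so injection and hormone cannot be told apart.

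Levels are given as FPKM, fragments per kilobase of gene, scaled to library size, which allows comparison between genes. The number of reads behind a value is unknown. Of all values in the table, 1.59% were listed at 0, and among 3322 genes with a mean above 10 FPKM, 96 had at least 1 library at 0. A value at 0 is therefore described only as listed at 0. Summed levels of 7 muscle fibre markers were between 60166 and 90169 FPKM in every library, so the labelled tissue matched its markers. Of the 47 libraries, 40 shared between 29 and 156 exact low values with libraries of their own group. The remaining 7 shared at most 1, and they were spread over WT sham, RE-RE sham and RE-RE ADX. Results that changed without these 7 are given with both values.

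The promoters are shown for the element that REV-ERB and ROR receptors are known to bind, whose core lies in 1 of 2 Arntl windows and 1 of 3 Clock windows and not in the 1 Npas2 window. RefSeq promoter windows on GRCm38.p6, from 250 bases before to 50 after an annotated start, matched all 3 genes. Each line is read 5′ to 3′ on the gene's own strand. Capitals mark the ROR/REV-ERB element core AGGTCA, which reads TGACCT where it lies on the opposite strand. The Arntl window is chr7:113207261-113207560 on the plus strand, the Clock window chr5:76303453-76303752 on the minus strand, and the Npas2 window chr1:39194022-39194321 on the plus strand.
Arntl promoter: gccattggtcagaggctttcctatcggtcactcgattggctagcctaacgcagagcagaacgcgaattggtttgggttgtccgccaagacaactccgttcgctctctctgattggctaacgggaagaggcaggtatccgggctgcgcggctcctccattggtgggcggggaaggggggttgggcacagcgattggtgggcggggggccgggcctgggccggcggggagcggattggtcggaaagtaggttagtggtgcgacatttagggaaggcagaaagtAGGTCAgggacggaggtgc
Clock promoter: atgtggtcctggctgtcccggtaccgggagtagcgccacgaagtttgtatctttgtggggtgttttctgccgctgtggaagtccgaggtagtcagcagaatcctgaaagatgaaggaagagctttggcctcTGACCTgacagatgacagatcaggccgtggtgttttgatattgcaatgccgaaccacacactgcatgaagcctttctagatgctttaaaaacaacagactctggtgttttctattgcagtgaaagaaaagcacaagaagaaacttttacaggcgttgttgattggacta
Npas2 promoter: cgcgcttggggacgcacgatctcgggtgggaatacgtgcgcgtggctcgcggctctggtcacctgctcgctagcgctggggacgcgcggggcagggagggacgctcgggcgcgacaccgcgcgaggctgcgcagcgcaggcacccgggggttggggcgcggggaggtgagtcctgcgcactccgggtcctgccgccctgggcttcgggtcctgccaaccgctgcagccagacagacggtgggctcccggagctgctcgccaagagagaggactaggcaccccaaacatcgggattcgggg
In the Arntl window the core lies on the gene's strand, at positions 32 to 37 from the start. It occurred in 16.3% of 32851 mouse windows of the same length, so it is not rare. The Clock window shown holds the core once, on the opposite strand, at positions -119 to -114, and lies inside the annotated gene. The other 2 Clock windows hold none, and both span the gene's 5′ end at 76304792. For Arntl and Clock the windows shown are thus the ones that hold the core. The share of 16.3% is per window, and Clock had 3 windows in which the core could occur. No E-box CACGTG and no D-box TTATGTAA was found on either strand in the windows of the 3 members, against 7.15% and 0.938% of all windows. These matches describe letters and not bound sites.

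On GRCm38 with the GENCODE M21 annotation, Arntl (ENSMUSG00000055116) lies on chromosome 7 from 113207465 to 113314126, on the plus strand. Clock (ENSMUSG00000029238) lies on chromosome 5 from 76209868 to 76304792, on the minus strand. Npas2 (ENSMUSG00000026077) lies on chromosome 1 from 39193731 to 39363236, on the plus strand. Each overlaps other annotated genes: an antisense gene in Arntl, a pseudogene and a predicted gene in Clock, and 2 pseudogenes in Npas2. Whether counting used strand is not given in the sources used here, so shared reads cannot be separated.

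Among the members, Arntl had the highest mean over the libraries, 8.74 FPKM, ahead of Clock with 2.57 FPKM and Npas2 with 0.761 FPKM. Clock reached 1 FPKM in all 47 libraries and Arntl in 38. Npas2 reached it in 16, and these were the 16 RE-RE libraries. The test required 1 FPKM in at least 3 libraries, so Npas2 entered it only through RE-RE mice. The same test without that filter kept every call of the 3 members.

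**Figure D1:**
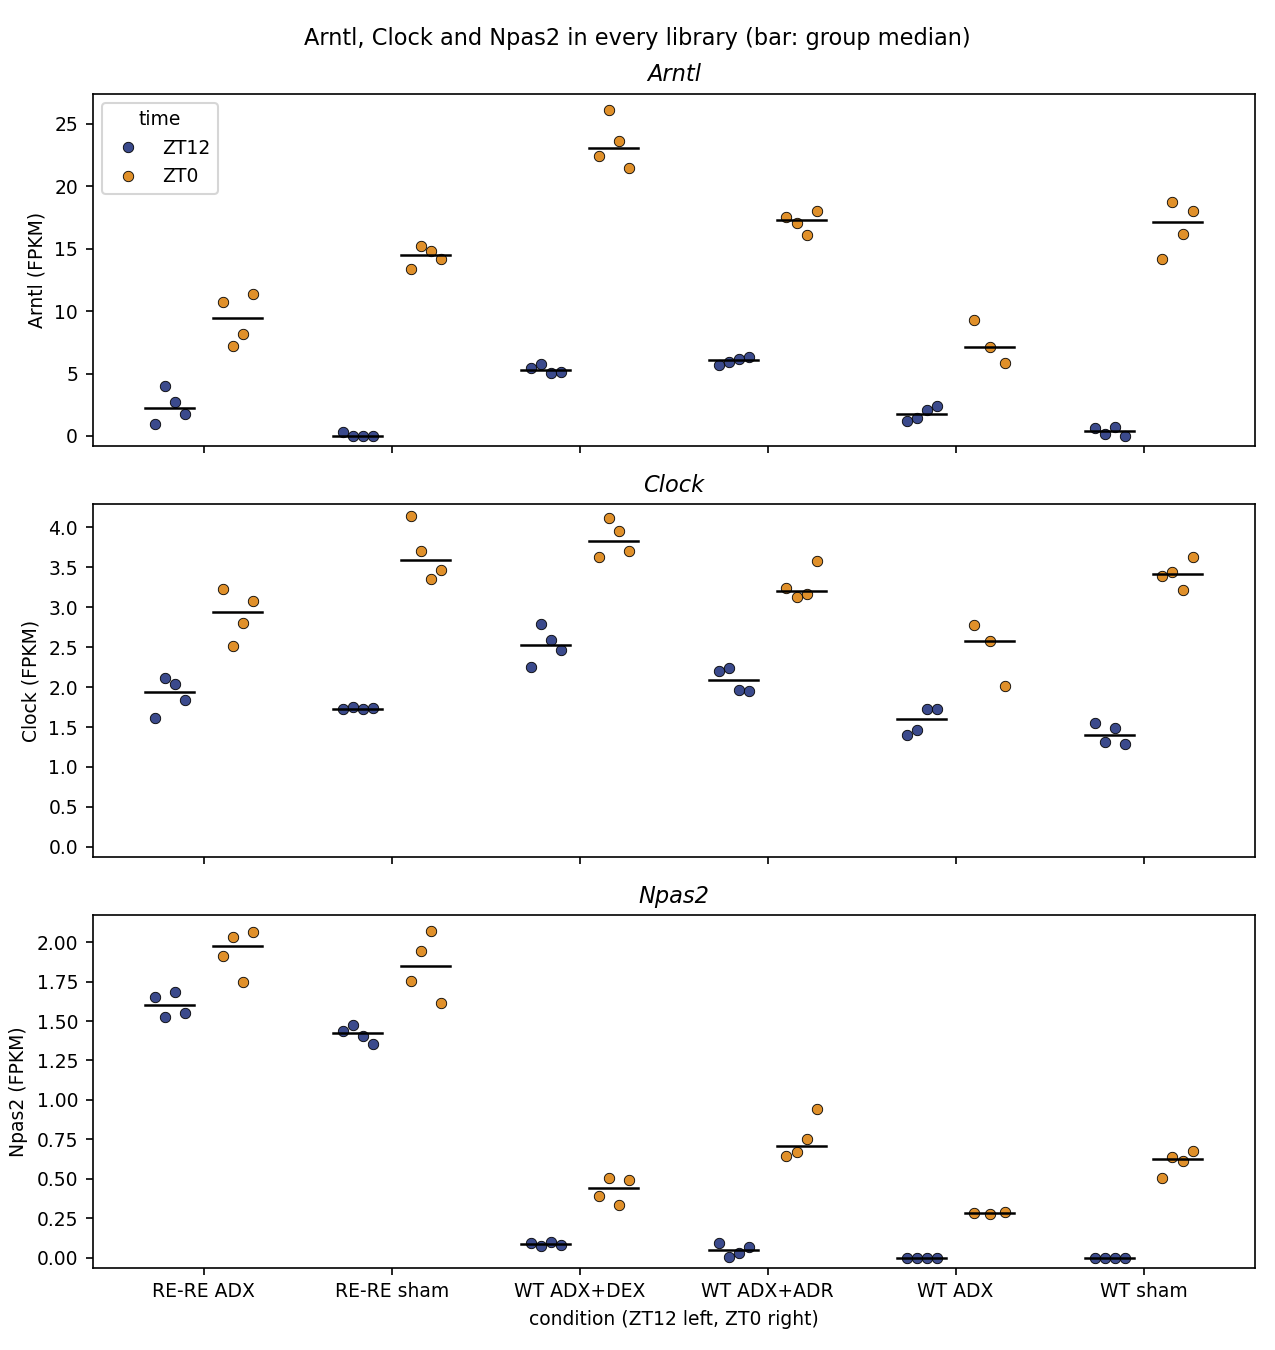
FPKM of Arntl, Clock and Npas2 (vertical axes) in each of the 47 libraries, by condition, with ZT12 left and ZT0 right; points are libraries and bars are group medians. In all 6 conditions every ZT12 library lies below every ZT0 library for each gene, and Npas2 lies at or above 1.35 FPKM in every RE-RE library but at or below 0.944 FPKM in every WT library.

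At ZT12 all 3 activators were lower than at ZT0 in each condition. In all 18 comparisons of a member between the times, the highest ZT12 library was below the lowest ZT0 library. The share of the 12000 tested genes whose ZT12 libraries lay wholly below the ZT0 libraries was 3.02% in RE-RE ADX, 6.04% in RE-RE sham, 13.1% in WT ADX+DEX, 8.32% in WT ADX+ADR, 7.68% in WT ADX and 11.1% in WT sham. By the limma test on the deposited scale, log2(FPKM + 0.01), at an adjusted p under 0.05, the shares called lower at ZT12 were 0.183%, 5.03%, 13.2%, 6.45%, 3.38% and 9.5%, in the same order of conditions. Clock was called lower in all 6 conditions and Arntl in 3 of 6. On log2(FPKM + 1), which gives less weight to values near 0, Arntl was called lower in all 6, where the shares of genes called lower were 0.2%, 5.43%, 13.7%, 7.0%, 3.7% and 10.1%.

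Arntl, the member that both dimers need, had the widest swing in FPKM. In WT sham muscle it was at 0.673, 0.123, 0.758 and 0 FPKM at ZT12, against 14.2, 18.8, 16.2 and 18.0 FPKM at ZT0. In RE-RE sham muscle it was at 0.327 FPKM in 1 library and listed at 0 in the other 3 at ZT12, against 13.4, 15.2, 14.8 and 14.2 FPKM at ZT0. Every library of both sham conditions was thus at or below 0.758 FPKM at ZT12. The log2 difference between ZT12 and ZT0 was -9.22 ± 0.81 in RE-RE sham (SE, adjusted p = 1.59e-10) and -6.68 ± 0.81 in WT sham (adjusted p = 1.1e-07). These sizes depend on the offset added to libraries at 0. With an offset of 1 they were -3.84 ± 0.18 and -3.72 ± 0.18. The difference between these 2 time effects, RE-RE sham minus WT sham, was -2.54 ± 1.14 on the deposited scale (adjusted p = 0.32) and -0.13 ± 0.26 on log2(FPKM + 1).

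After adrenalectomy Arntl was found at more even levels, lower at ZT0 and higher at ZT12. WT ADX muscle had 1.24, 1.46, 2.08 and 2.42 FPKM at ZT12, against 9.28, 7.14 and 5.82 FPKM at ZT0. RE-RE ADX muscle had 0.985, 3.99, 2.72 and 1.79 FPKM at ZT12, against 10.7, 7.22, 8.13 and 11.4 FPKM at ZT0. The ZT12 mean was 0.243 of the ZT0 mean in WT ADX and 0.253 of it in RE-RE ADX. On the deposited scale neither time difference passed the test, at -2.13 ± 0.81 in RE-RE ADX (adjusted p = 0.247) and -2.06 ± 0.87 in WT ADX (adjusted p = 0.12). Both did on log2(FPKM + 1), at -1.68 ± 0.18 (adjusted p = 2.84e-07) and -1.59 ± 0.19 (adjusted p = 1.27e-06). The SE of Arntl is wide on the deposited scale, where the sham groups at ZT12 mix libraries at 0 with libraries above it and all groups share 1 estimate of spread.

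Hormone-treated WT muscle kept Arntl several FPKM above 0 at ZT12. With dexamethasone it was at 5.45, 5.75, 5.02 and 5.10 FPKM at ZT12, against 22.4, 26.1, 23.6 and 21.4 FPKM at ZT0. With adrenaline it was at 5.66, 5.96, 6.19 and 6.29 FPKM at ZT12, against 17.5, 17.0, 16.1 and 18.0 FPKM at ZT0. All 8 hormone libraries at ZT12 lay above all 16 ZT12 libraries of the other conditions. The share of genes that do so was not computed. Against WT ADX alone at ZT12, 31.0% of tested genes were wholly higher with dexamethasone and 25.1% with adrenaline. Those shares cover fewer libraries and conditions, so how rare the wider separation is stays unknown. The time difference was -2.13 ± 0.81 with dexamethasone (adjusted p = 0.0441) and -1.51 ± 0.81 with adrenaline (adjusted p = 0.234). P-values were adjusted over the genes of each comparison, so the same difference has another adjusted p in RE-RE ADX. It was, on log2(FPKM + 1), -1.94 ± 0.18 (adjusted p = 9.18e-11) and -1.37 ± 0.18 (adjusted p = 4.93e-07). The dexamethasone call on the deposited scale was lost without any single one of its 8 libraries, with adjusted p between 0.0682 and 0.0827.

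Ordered by mean, the Arntl levels ran from 23.4 ± 2.02 FPKM in WT ADX+DEX at ZT0 (SD, n = 4) downwards through WT ADX+ADR, WT sham, RE-RE sham, RE-RE ADX and WT ADX at ZT0. WT ADX+ADR, WT ADX+DEX, RE-RE ADX, WT ADX, WT sham and RE-RE sham at ZT12 followed. Each ZT0 group mean therefore exceeded each ZT12 group mean, across conditions as well as within them. Neighbours whose libraries did not overlap were WT ADX+DEX and WT ADX+ADR at ZT0, RE-RE ADX and RE-RE sham at ZT0, RE-RE ADX and WT ADX+DEX at ZT12, and WT ADX and WT sham at ZT12. The other neighbouring groups overlapped.

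Clock, the usual partner of BMAL1, followed the same direction with a smaller range. In WT sham it was at 1.55, 1.31, 1.49 and 1.29 FPKM at ZT12, against 3.39, 3.44, 3.21 and 3.64 FPKM at ZT0. In RE-RE sham it was at 1.72, 1.76, 1.72 and 1.74 FPKM at ZT12, against 4.15, 3.71, 3.36 and 3.47 FPKM at ZT0. The ZT12 level was 0.473 of the ZT0 level in RE-RE sham and 0.412 of it in WT sham. The log2 differences were -1.07 ± 0.09 in RE-RE sham (adjusted p = 1.59e-10) and -1.27 ± 0.09 in WT sham (adjusted p = 5.21e-13).

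In the 4 conditions with adrenalectomy the Clock difference was narrower, and the ratio of ZT12 to ZT0 means lay between 0.638 and 0.655. RE-RE ADX averaged 1.90 ± 0.226 FPKM at ZT12 and 2.91 ± 0.316 FPKM at ZT0 (SD, n = 4 each). WT ADX+DEX averaged 2.52 ± 0.224 FPKM at ZT12 and 3.85 ± 0.226 FPKM at ZT0 (SD, n = 4 each). WT ADX+ADR averaged 2.09 ± 0.155 FPKM at ZT12 and 3.28 ± 0.204 FPKM at ZT0 (SD, n = 4 each). In these means the dexamethasone group was the highest at each time. Every neighbouring pair in the order of the 12 Clock means overlapped. WT ADX averaged 1.58 ± 0.172 FPKM at ZT12 (SD, n = 4) and 2.45 ± 0.396 FPKM at ZT0 (SD, n = 3). The 4 log2 differences lay between -0.65 and -0.61, with adjusted p between 3.18e-06 and 0.000362. In a model of only the compared groups, 2 of them missed the threshold, RE-RE ADX at adjusted p = 0.107 and WT ADX at adjusted p = 0.101. Without the 7 libraries that stand apart, RE-RE ADX had -0.41 (adjusted p = 0.538).

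Npas2, whose protein can take the place of CLOCK in the dimer, was listed at 0 in all 4 WT sham and all 4 WT ADX libraries at ZT12. At ZT0 it was at 0.506, 0.639, 0.612 and 0.674 FPKM in WT sham and at 0.283, 0.278 and 0.289 FPKM in WT ADX. No fold is given against these groups at 0. The hormone-treated groups were not at 0 at ZT12, but close to it. WT ADX+DEX had 0.0897, 0.0731, 0.0974 and 0.0778 FPKM at ZT12, against 0.392, 0.502, 0.332 and 0.492 FPKM at ZT0. WT ADX+ADR had 0.0902, 0.00491, 0.0268 and 0.0681 FPKM at ZT12, against 0.646, 0.668, 0.750 and 0.944 FPKM at ZT0. Such ZT12 levels exceeded at most 3.56% of the genes of their library. The log2 differences were -2.21 ± 0.29 with dexamethasone (adjusted p = 2.52e-07) and -4.05 ± 0.29 with adrenaline (adjusted p = 4.64e-13). These sizes depend on the offset. On log2(FPKM + 1) they were -0.40 ± 0.05 (adjusted p = 6.62e-08) and -0.74 ± 0.05 (adjusted p = 1.78e-14).

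RE-RE muscle carried Npas2 at both times. RE-RE ADX had 1.65, 1.53, 1.68 and 1.55 FPKM at ZT12, against 1.91, 2.03, 1.75 and 2.06 FPKM at ZT0. RE-RE sham had 1.44, 1.48, 1.41 and 1.35 FPKM at ZT12, against 1.75, 1.94, 2.07 and 1.61 FPKM at ZT0. The times did not overlap, yet the ZT12 mean was 0.827 of the ZT0 mean in RE-RE ADX and 0.769 of it in RE-RE sham. Neither difference passed the test on the deposited scale, at -0.27 ± 0.29 (adjusted p = 0.817) and -0.37 ± 0.29 (adjusted p = 0.489). The RE-RE sham difference passed on log2(FPKM + 1), at -0.23 ± 0.05 (adjusted p = 0.00124), and the RE-RE ADX difference of -0.17 ± 0.05 did not (adjusted p = 0.085).

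**Figure D2:**
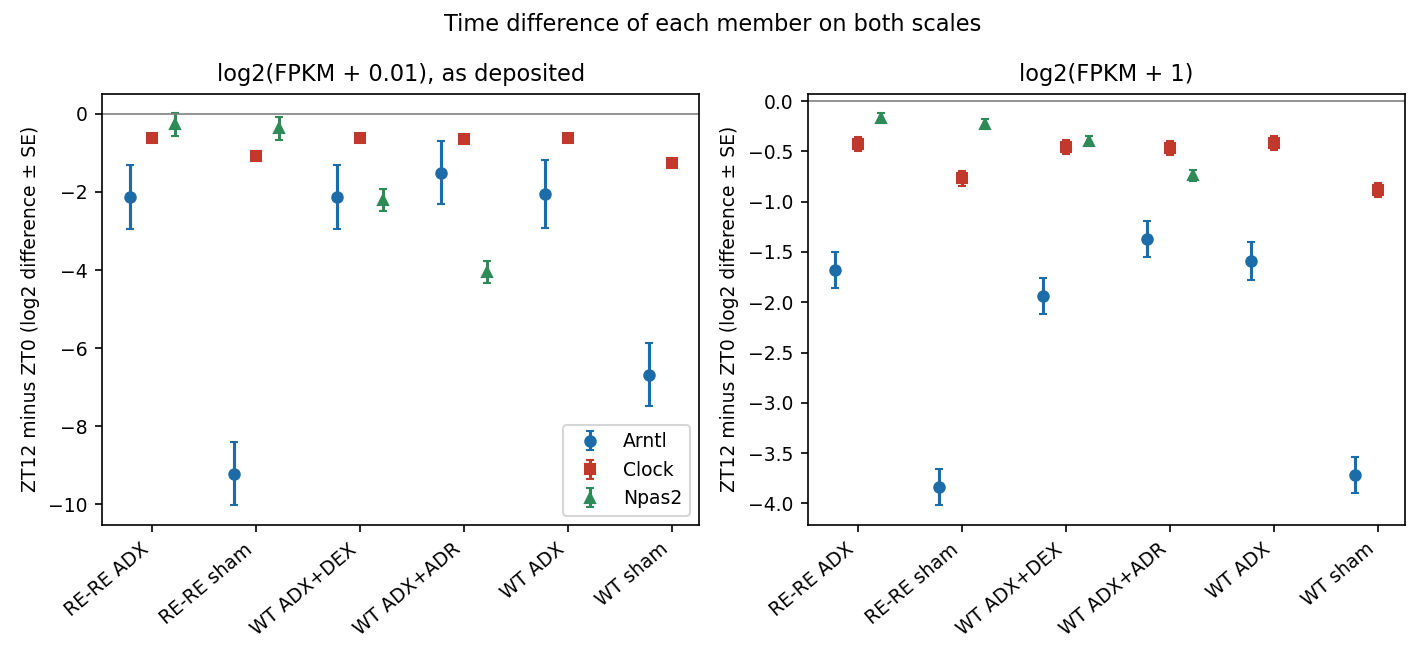
Log2 difference between ZT12 and ZT0 with its SE (vertical axes) for each member in the 6 conditions, on the deposited scale (left) and on log2(FPKM + 1) (right); Npas2 is left out where a group is at 0. Arntl is lowest in the 2 sham conditions on both scales, and Clock lies between -0.61 and -1.27 on the deposited scale.

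Adrenalectomized WT muscle held less of all 3 activators at ZT0. In WT ADX against WT sham at ZT0 none of the 3 members overlapped, and all were lower, where 17.7% of tested genes were wholly lower and 19.4% were called lower. Clock fell by 0.49 ± 0.10 on the log2 scale (adjusted p = 0.000305), to 2.45 FPKM in WT ADX, against 3.42 FPKM in WT sham. Npas2 fell by 1.07 ± 0.32 (adjusted p = 0.0092), to 0.466 of its sham mean. Without the libraries that stand apart the Npas2 difference was -1.02 (adjusted p = 0.0575). Arntl had 0.441 of its sham mean, with -1.20 ± 0.87 on the deposited scale (adjusted p = 0.308) and -1.09 ± 0.19 on log2(FPKM + 1) (adjusted p = 4.58e-05).

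At ZT12 the order turned round for Arntl. All 4 WT ADX libraries were above all 4 WT sham libraries, and 13.5% of tested genes were wholly higher and 10.3% called higher there. The difference was 3.43 ± 0.81 on the deposited scale (adjusted p = 0.00159) and 1.03 ± 0.18 on log2(FPKM + 1) (adjusted p = 4.41e-05). With only those groups in the model it missed the threshold (adjusted p = 0.0873), and without WT sham ZT12 replicate 8 it was 2.08 (adjusted p = 0.0193). Clock overlapped between the groups, at 1.40 to 1.73 FPKM in WT ADX and 1.29 to 1.55 FPKM in WT sham, with a difference of 0.16 ± 0.09 (adjusted p = 0.205). Npas2 was at 0 in both.

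The test of the time effect itself, WT ADX minus WT sham, gave 4.62 ± 1.19 for Arntl (adjusted p = 0.0326) and 0.65 ± 0.14 for Clock (adjusted p = 0.00633), and 0.667% of genes were called in that direction. Both positive values mean a smaller fall at ZT12 in WT ADX. They were, on log2(FPKM + 1), 2.13 ± 0.27 (adjusted p = 2.24e-06) and 0.46 ± 0.10 (adjusted p = 0.00541). Without the libraries that stand apart Arntl had 3.24 (adjusted p = 0.147). Its call on the deposited scale was also lost on leaving out any of 7 single libraries, WT sham ZT0 replicates 2 and 4, WT sham ZT12 replicate 8, WT ADX ZT0 replicates 2 and 3, and WT ADX ZT12 replicates 6 and 7, with adjusted p up to 0.0813.

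RE-RE mice gave a like pattern for Arntl. At ZT0 Arntl in RE-RE ADX was 0.650 of its RE-RE sham mean, and at ZT12 the 4 RE-RE ADX libraries, from 0.985 to 3.99 FPKM, were all above the RE-RE sham libraries. There 5.58% of tested genes were wholly higher and 1.77% called higher, and Arntl had 6.45 ± 0.81 (adjusted p = 1.58e-05), or 1.57 ± 0.18 on log2(FPKM + 1) (adjusted p = 8.7e-07). The ZT0 difference was -0.65 ± 0.81 (adjusted p = 0.716) and passed only on log2(FPKM + 1), at -0.59 ± 0.18 (adjusted p = 0.0439). Clock fell by 0.34 ± 0.09 at ZT0 (adjusted p = 0.0291), where 7.96% of genes were wholly lower and 3.89% called lower. That call was lost without RE-RE sham ZT0 replicate 1 or 2 or RE-RE ADX ZT0 replicate 2 or 3, with adjusted p up to 0.147, and without the libraries that stand apart (-0.45, adjusted p = 0.0632). At ZT12 Clock differed by 0.12 ± 0.09 (adjusted p = 0.475). For Npas2 the RE-RE ADX minus RE-RE sham difference was 0.08 ± 0.29 at ZT0 and 0.18 ± 0.29 at ZT12, with adjusted p of 0.93 and 0.798. Npas2 at ZT12 was nonetheless wholly higher in RE-RE ADX, at 1.53 to 1.68 FPKM, against 1.35 to 1.48 FPKM in RE-RE sham. That difference was 0.11 ± 0.05 on log2(FPKM + 1) (adjusted p = 0.194).

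In RE-RE mice the difference of time effects, ADX minus sham, was 7.09 ± 1.14 for Arntl (adjusted p = 0.00257), where 0.0417% of genes, which is 5 genes, were called in that direction. With an offset of 1 it was 2.16 ± 0.26 (adjusted p = 3.41e-06). Clock had 0.46 ± 0.13 (adjusted p = 0.186) and Npas2 0.10 ± 0.41 (adjusted p = 1.0).

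The ADX and sham mice differed in other respects. The WT ADX mice were 12 weeks or older and the WT sham mice 12 weeks or younger. The mitochondrial gene Nnt, which is known to carry a deletion in some C57BL/6 substrains, was listed at 0 in each of the 7 WT ADX libraries and in 2 of the 8 WT sham libraries, and it was at or above 9.86 FPKM in every hormone-treated library. With age in the model, the Arntl and Clock calls in WT ADX against WT sham were kept. At ZT0 the ages were 12 to 15 weeks in WT ADX and 9 to 11 weeks in WT sham. At ZT12 they were 13 to 17 weeks and 10 to 12 weeks. With no age shared at either time, the model with age cannot tell age and surgery apart. The summed level of 5 of 5 endothelial markers was 135 to 153 FPKM in WT ADX at ZT0, against 107 to 109 FPKM in WT sham, and 133 to 144 FPKM in WT ADX at ZT12, against 87.4 to 93.8 FPKM in WT sham. With dexamethasone it was 60.2 to 66.5 FPKM at ZT0 and 61.9 to 73.4 FPKM at ZT12. The groups did not overlap in any of these comparisons. The part of a substrain difference or of vessel cells in these results was not tested.

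Both hormone conditions had higher Clock than WT ADX at each time, and the 2 comparisons share the WT ADX mice. Nnt also separated WT ADX from both hormone conditions, as given above. The part of a substrain difference in the hormone comparisons of the 3 members was not tested. At ZT0 Clock averaged 3.85 FPKM in WT ADX+DEX and 3.28 FPKM in WT ADX+ADR, against 2.45 FPKM in WT ADX, and the differences were 0.66 ± 0.10 (adjusted p = 4.25e-07) and 0.43 ± 0.10 (adjusted p = 0.000593). At ZT12 they were 0.67 ± 0.09 (adjusted p = 7.67e-08) and 0.41 ± 0.09 (adjusted p = 0.00042). These comparisons called many genes. At ZT0, 36.4% of genes were called higher with dexamethasone and 26.8% with adrenaline. At ZT12 the shares were 34.6% and 27.7%, so a call on 1 gene there is not rare.

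Arntl was likewise higher than in WT ADX in all hormone libraries at both times. Genes wholly higher than WT ADX made up 33.3% with dexamethasone and 24.8% with adrenaline at ZT0, and 31.0% and 25.1% at ZT12. The Arntl mean was 3.16 times that of WT ADX with dexamethasone and 2.32 times with adrenaline at ZT0, and 2.96 and 3.35 times at ZT12. All 4 differences, between 1.24 and 1.79 on the deposited scale, missed the threshold there, with adjusted p between 0.0602 and 0.24. All passed on log2(FPKM + 1), between 1.13 and 1.55, with adjusted p of 8.88e-06 or less, where 37.0% of genes were called higher with dexamethasone and 27.2% with adrenaline at ZT0, and 34.9% and 28.3% at ZT12. Arntl was thus higher at both times, and the difference of time effects against WT ADX was -0.07 ± 1.19 with dexamethasone and 0.55 ± 1.19 with adrenaline (adjusted p = 0.98 and 0.861). For Clock these differences were 0.02 ± 0.14 and -0.02 ± 0.14 (adjusted p = 0.963 and 0.962). Since the ZT0 levels of WT sham and both hormone conditions were not compared by a test, their ranges stand side by side: Arntl was at 21.4 to 26.1 FPKM with dexamethasone and 16.1 to 18.0 FPKM with adrenaline, against 14.2 to 18.8 FPKM in WT sham.

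Npas2 rose by 1.36 ± 0.32 with adrenaline at ZT0 (adjusted p = 0.000515), to 0.752 ± 0.136 FPKM in WT ADX+ADR (SD, n = 4), against 0.283 ± 0.00550 FPKM in WT ADX (SD, n = 3). With dexamethasone at ZT0 it was at 0.429 ± 0.0816 FPKM (SD, n = 4), and the difference of 0.56 ± 0.32 missed the threshold (adjusted p = 0.111) but passed on log2(FPKM + 1), at 0.15 ± 0.05 (adjusted p = 0.0106). WT ADX+DEX was lower than WT ADX+ADR in Npas2 at ZT0, with a difference of -0.80 ± 0.29 (adjusted p = 0.023), where 20.8% of genes were wholly lower and 23.5% called lower. Clock pointed the other way, 0.23 ± 0.09 higher with dexamethasone at ZT0 (adjusted p = 0.0377) and 0.27 ± 0.09 higher at ZT12 (adjusted p = 0.0189), with 25.1% and 21.2% of genes called higher. These calls were lost on leaving out single libraries, with adjusted p up to 0.0782 for Npas2 at ZT0, 0.108 for Clock at ZT0 and 0.0787 for Clock at ZT12. Without the libraries that stand apart, Npas2 at ZT0 had -0.80 (adjusted p = 0.0532). At ZT12 Npas2 overlapped between the hormones, and its difference of 1.05 ± 0.29 (adjusted p = 0.00386) was 0.05 ± 0.05 on log2(FPKM + 1) (adjusted p = 0.43) and 0.51 without WT ADX+ADR ZT12 replicate 6 (adjusted p = 0.0559). Arntl differed by 0.44 ± 0.81 at ZT0 (adjusted p = 0.682), or 0.42 ± 0.18 on log2(FPKM + 1) (adjusted p = 0.0487), and by -0.18 ± 0.81 at ZT12 (adjusted p = 0.89).

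Against WT sham, RE-RE sham muscle stood out in Npas2. At ZT12 Npas2 was at 1.35 to 1.48 FPKM in RE-RE sham and listed at 0 in all 4 WT sham libraries. At ZT0 it averaged 1.84 ± 0.203 FPKM in RE-RE sham and 0.608 ± 0.0722 FPKM in WT sham (SD, n = 4 each), which is 3.03 times as much and a log2 difference of 1.59 ± 0.29 (adjusted p = 0.000143). Wholly higher genes made up 10.3% at ZT0 and 10.7% at ZT12, and 12.5% of genes were called higher at ZT0. The order of Npas2 levels began with the 4 RE-RE groups, followed by WT ADX+ADR, WT sham, WT ADX+DEX and WT ADX at ZT0 and then the WT groups at ZT12. Neighbours in it overlapped for RE-RE ADX and RE-RE sham at ZT0, for RE-RE sham at ZT0 and RE-RE ADX at ZT12, for WT ADX+ADR and WT sham at ZT0, and for the hormone groups at ZT12. The RE-RE ADX libraries, from 1.53 to 2.06 FPKM, were also above every WT library, whose highest was 0.944 FPKM. Npas2 was at 0 in all 8 WT sham and WT ADX libraries at ZT12. It was at 1 FPKM or more in all 16 RE-RE libraries. Both features together were shared by 8 genes, Npas2 included. The rule copies the levels of Npas2, so its membership was given and the count is no test of rarity.

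Arntl and Clock were much closer between the genotypes. Arntl is the gene that the RE-RE genotype restores, and at ZT0 it was at 13.4 to 15.2 FPKM in RE-RE sham and 14.2 to 18.8 FPKM in WT sham, with a difference of -0.21 ± 0.81 (adjusted p = 0.88). On log2(FPKM + 1) this was -0.20 ± 0.18. At ZT12 the Arntl difference was -2.75 ± 0.81 (adjusted p = 0.0133), but the groups overlapped, the difference was -0.33 ± 0.18 on log2(FPKM + 1) (adjusted p = 0.197), and leaving out single libraries moved it between -4.09 and -2.01. The call was lost without WT sham ZT12 replicate 5 or 7 or RE-RE sham ZT12 replicate 6, 7 or 8. Clock differed by 0.10 ± 0.09 at ZT0 (adjusted p = 0.475) and rose by 0.30 ± 0.09 at ZT12 (adjusted p = 0.0198), to 1.73 FPKM in RE-RE sham, against 1.41 FPKM in WT sham. There 9.22% of genes were called higher and 10.1% lower. That call was lost without WT sham ZT12 replicate 6 or 8 (adjusted p up to 0.073) and without the libraries that stand apart (0.25, adjusted p = 0.117).

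Fibroblast markers were high in RE-RE muscle, where Npas2 was high, and also in some WT groups where Npas2 was low. The summed level of 4 of 4 listed markers was 303 to 387 FPKM in RE-RE ADX and 225 to 263 FPKM in RE-RE sham at ZT12, against 80.3 to 133 FPKM in WT sham at ZT12. At ZT0 it was 349 to 456 FPKM in RE-RE ADX and 190 to 395 FPKM in RE-RE sham, against 81.4 to 195 FPKM in WT sham. Col1a1, a collagen gene among these markers, was at 88.4 to 104 FPKM in RE-RE sham at ZT12. In WT sham it was at 0 to 25.6 FPKM at that time. Pdgfra, a receptor of fibroblast progenitors, was at 1.19 to 1.57 FPKM in RE-RE sham and 0.532 to 0.982 FPKM in WT sham at that time. Dcn, another of the markers, overlapped, at 65.6 to 105 FPKM in RE-RE sham and 67.5 to 84.1 FPKM in WT sham at ZT12. In WT ADX+ADR at ZT0 the summed level was 182 to 354 FPKM, overlapping RE-RE sham at that time, while Npas2 was at 0.646 to 0.944 FPKM there. In WT ADX at ZT0 the summed level was 144 to 339 FPKM, with Npas2 at 0.278 to 0.289 FPKM. Summed macrophage markers were at 5.81 to 10.8 FPKM in RE-RE libraries and 2.80 to 6.57 FPKM in WT sham libraries. At ZT0 they were at 4.07 to 6.98 FPKM in WT ADX+DEX, 6.84 to 10.7 FPKM in WT ADX+ADR and 6.66 to 10.6 FPKM in WT ADX. At ZT12 the same 3 conditions had 2.48 to 3.54, 3.84 to 7.42 and 3.44 to 5.73 FPKM. In WT ADX+DEX both collagen genes Col1a1 and Col3a1 were listed at 0 in all 8 libraries. Since whole muscle was sequenced, more cells of a type and more RNA per cell cannot be told apart, and the part of other cell types in the Npas2 difference was not tested.

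Ratios within a library do not depend on how that library was scaled. The Npas2 to Clock ratio had a median of 0.834 at ZT12 and 0.647 at ZT0 in RE-RE ADX, and of 0.826 at ZT12 and 0.495 at ZT0 in RE-RE sham. In WT muscle the highest median was 0.225, in WT ADX+ADR at ZT0, and at ZT12 it was 0.0346 with dexamethasone and 0.0243 with adrenaline. The ratio was thus higher at ZT12 than at ZT0 in RE-RE muscle and lower at ZT12 in the hormone-treated WT muscle, as medians with no test. The Arntl to Clock ratio had ZT0 medians of 6.07 in WT ADX+DEX, 5.24 in WT ADX+ADR, 2.89 in WT ADX and 5.00 in WT sham. At ZT12 these medians were 2.07, 2.90 and 1.10 in the first 3, and 1 WT sham library had Arntl listed at 0.

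**Figure D3:**
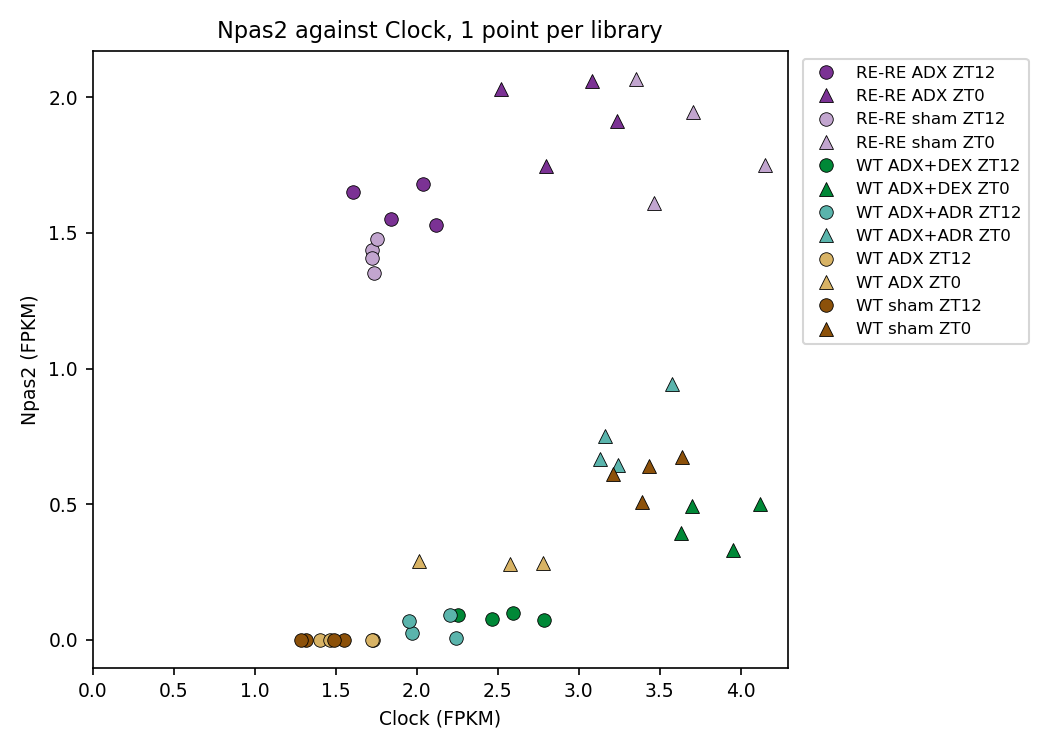
Npas2 against Clock in FPKM, with 1 point per library, circles for ZT12 and triangles for ZT0. The 16 RE-RE libraries lie at or above 1.35 FPKM of Npas2, with Clock from 1.61 to 4.15 FPKM, and the 31 WT libraries lie at or below 0.944 FPKM of Npas2.

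Across the 12 group means of log2(FPKM + 1), Arntl and Clock had a Pearson r of 0.94, Arntl and Npas2 0.14, and Clock and Npas2 0.35. Over the 8 WT group means the values were 0.97, 0.85 and 0.87. These describe few points that share the 2 times, the muscle and the normalisation. The genes most like Arntl over the 12 means were Miga2, a mitochondrial outer membrane protein, with 0.98, then Tbc1d14, Clock, Atp1b4 and Ptpn4 with 0.93 to 0.94. Among the least like were Kpna2, Usp22, Tef and Dkc1, from -0.92 to -0.89. Miga2 fell at ZT12 in all 6 conditions, with log2 differences between -1.41 and -0.41, and averaged 2.50 FPKM at ZT12 and 6.64 FPKM at ZT0 in RE-RE sham.

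For Clock the highest values were those of Trip11, Amot, Taf2, Slc38a4 and Ptpn4, from 0.94 to 0.96, and among the lowest were those of Dyrk1b, Ankrd12, Gab1 and Dusp14, from -0.94 to -0.91. For Npas2 the highest were Cilp and Serpine2, which encode secreted proteins, Zfp354c, the endothelial gene Plvap and Pet100, from 0.90 to 0.95. The lowest were D10Wsu102e, Cyp4f17, Efcab6, Napa and Slc2a12, from -0.94 to -0.91. Cilp was at 9.46 to 18.4 FPKM in RE-RE sham at ZT12, against 1.92 to 5.62 FPKM in WT sham at ZT12, a genotype pattern like that of Npas2. Cilp passed no ZT12 against ZT0 test in any condition.

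Genes of the negative arm, whose proteins inhibit the activators, were more often higher than lower at ZT12. Of all tested genes, 0.592% were called higher at ZT12 in RE-RE ADX, 5.73% in RE-RE sham, 14.7% in WT ADX+DEX, 6.28% in WT ADX+ADR, 7.64% in WT ADX and 14.0% in WT sham. Of the 8 genes of the negative arm, 2 rose at ZT12 in RE-RE ADX, 5 in RE-RE sham, 5 in WT ADX+DEX, 6 in WT ADX+ADR, 4 in WT ADX and 6 in WT sham. None fell in RE-RE ADX and WT ADX, and 1 fell in each of the other 4, the cryptochrome gene Cry1, by 0.40 ± 0.10 in RE-RE sham, 1.07 ± 0.10 in WT ADX+DEX, 0.60 ± 0.10 in WT ADX+ADR and 0.31 ± 0.10 in WT sham. The list's median log2 difference lay between 0.73 and 1.77, against medians of all genes between 0.00 and 0.02. Per2, a period gene, rose by 1.74 ± 0.27 in RE-RE sham (adjusted p = 1.65e-05) and by 4.33 ± 0.27 in WT sham (adjusted p = 5.89e-15). In the ADX pair Per2 rose by 2.02 ± 0.29 in WT ADX (adjusted p = 1.27e-05) and had 0.82 ± 0.27 in RE-RE ADX (adjusted p = 0.149). Cry2, the other cryptochrome gene, rose by 0.63 ± 0.09 in RE-RE ADX (adjusted p = 0.000272), 0.95 ± 0.09 in RE-RE sham, 0.60 ± 0.10 in WT ADX and 1.04 ± 0.09 in WT sham. Per3 was listed at 0 in all 4 WT ADX+DEX libraries at ZT0, and Ciart, a repressor of the dimer, in all 3 WT ADX libraries at ZT0.

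The clock output factors can be read against the same shares of all genes. Of 7 genes, 3 rose at ZT12 in RE-RE ADX, 4 in RE-RE sham, 4 in WT ADX+DEX, 5 in WT ADX+ADR, 3 in WT ADX and 5 in WT sham. In 3 of the conditions 1 fell. Tef, a leucine zipper factor of the DBP family, rose in all 6, by 0.44 ± 0.08 in RE-RE ADX (adjusted p = 0.00211) up to 1.21 ± 0.08 in WT sham (adjusted p = 2.38e-14). Hlf of the same family rose by 0.69 ± 0.14 in RE-RE ADX and 1.5 ± 0.14 in WT sham. The gene that fell was Nfil3, which encodes a repressor that binds the same sites as DBP, with -1.56 ± 0.33 in RE-RE sham, -1.51 ± 0.33 in WT ADX+DEX and -1.36 ± 0.33 in WT sham. In the test of the time effect, WT ADX minus WT sham, 0 genes of the negative arm were higher and 2 of 8 lower, and 0 output factors were higher and 4 of 7 lower, with medians of -0.80 and -0.70, where 0.875% of all genes were called lower. On log2(FPKM + 1), 4 of 8 genes of the negative arm were called lower in that test.

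Among the REV-ERB and ROR receptors and corepressors, 7 of 8 listed genes were tested, and 1 to 3 of these rose and 0 or 1 fell in each condition. Nr1d1, which encodes REV-ERBα, fell at ZT12 by 0.96 ± 0.17 in RE-RE ADX, 1.26 ± 0.17 in RE-RE sham, 0.62 ± 0.19 in WT ADX and 0.78 ± 0.17 in WT sham, with adjusted p of 0.0282 or less. In WT ADX+DEX it rose by 1.55 ± 0.17 (adjusted p = 1.04e-08), at 56.7 to 64.2 FPKM at ZT12, against 20.3 to 21.1 FPKM at ZT0. In WT ADX+ADR it had -0.42 ± 0.17 (adjusted p = 0.114). Arntl was lower at ZT12 in every one of these conditions. Nr1d2, for REV-ERBβ, rose in all 6 conditions, by 0.31 ± 0.10 in WT ADX (adjusted p = 0.0417) up to 1.64 ± 0.09 in WT ADX+DEX.

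**Figure D4:**
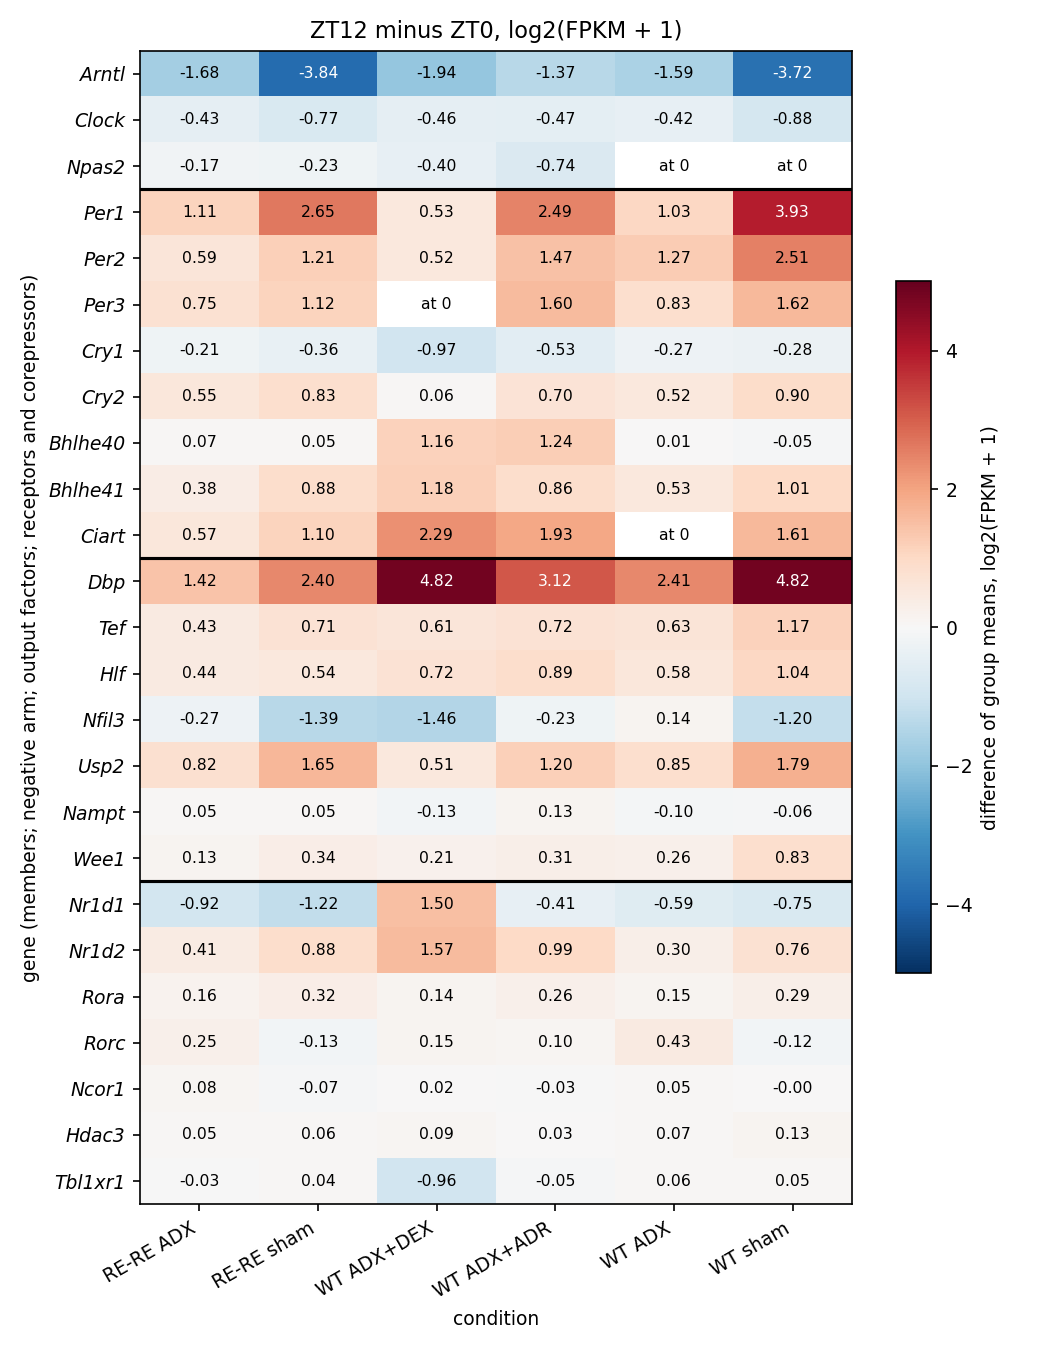
Difference of ZT12 and ZT0 group means on log2(FPKM + 1) for the 3 members (top block), the negative arm, the output factors, and the receptors and corepressors, in columns for the 6 conditions; blue is lower at ZT12, red is higher, and white cells marked at 0 have a group with every library at 0. The 3 members are blue in every column that has a value, and Nr1d1 changes colour in WT ADX+DEX.

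Relatives of the members were also listed. Of 16 listed bHLH-PAS and coactivator genes, 9 were tested, and 0 to 2 rose and 0 to 3 fell at ZT12, with medians between -0.10 and 0.08. Arnt, a relative of BMAL1 and partner of the hypoxia factors, rose by 0.19 ± 0.04 in RE-RE sham (adjusted p = 0.00171) and 0.17 ± 0.04 in WT sham (adjusted p = 0.00306). Its mean was also higher at ZT12 in RE-RE ADX, WT ADX and WT ADX+ADR, the last at 7.69 FPKM, against 6.36 FPKM at ZT0. In WT ADX+DEX it was lower, at 8.11 FPKM at ZT12, against 8.71 FPKM at ZT0. Arntl2, the BMAL1 paralog, averaged 0.761 FPKM and did not pass the filter. Of the 15 listed enzymes and other factors that modify BMAL1 and CLOCK proteins, 14 were tested, and 1 to 4 rose and 0 to 4 fell. Csnk1e, a casein kinase of the clock, rose in all 6 conditions, by 0.17 in WT ADX+DEX (adjusted p = 0.0312) up to 0.48 in RE-RE sham (adjusted p = 6.49e-07).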

How the data were processed

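RNA-seq of tibialis anterior muscle from 47 mice was used, with 1 library per mouse. Per the labels' protocols, reads were single-end with 60 bases and averaged 25 M per sample. The submitters' processing notes name build GRCm38 and the tools HISAT2 2.1.0, edgeR 3.30.0, FastQC 0.11.8, featureCounts 1.6.2 and Trim Galore 0.5.0. As deposited by the authors, values are log2 FPKM of 13500 genes, and their lowest value, -6.64, equals log2 of 0.01, so they were read as log2(FPKM + 0.01). How values at 0 arose, the strand setting of counting and the depth of each library are not given in the sources used here, so no interval for counting error is given.

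GENCODE M21 gave symbols to 13441 of the gene identifiers, and 59 had none. The 12000 genes with at least 1 FPKM in at least 3 libraries were tested with limma 3.58.1 in R 4.3.3 (1 mean per group, moderated with an intensity trend), on the values as deposited, in 23 comparisons. P-values were adjusted by Benjamini and Hochberg's method over all tested genes of each comparison, and an adjusted p under 0.05 was a call. The script was tested on simulated data. Fold changes on log2(FPKM + 0.01) depend on the offset where a library is at 0, so log2(FPKM + 1) is given beside them. Values other than tests were computed in Python 3.11.15 with numpy 2.4.6 and pandas 2.3.3, and plotted with matplotlib 3.10.9. Each group holds separate mice.

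The members and the gene lists were chosen with earlier results of these data known. Besides the members, up to 4 genes per list with the smallest adjusted p were named, and the 5 genes with the highest and the 5 with the lowest correlation to each member, among genes with a mean of at least 1 FPKM and no value at 0. A gene that this rule picks for Arntl and Clock is not reported here. Cry1 and Nfil3 where they fell outside that rule, Csnk1e in WT ADX+DEX, Arntl2, Nnt and the marker genes were added after their values were seen. Alternatives were 2 other offsets, no filter, equal library medians, age as a covariate, only the groups compared, values at 0 set to missing, a replicate block, leaving out the 7 libraries that stand apart, and leaving out each library.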

Additional observations from a re-analysis of the deposited data

Results flagged for a closer look

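In RE-RE sham muscle at ZT12, Arntl was at 0.327 FPKM in 1 library and listed at 0 in the other 3, so the gap from the highest library to the next covered the whole range of the group (ratio 1.0). With 3 libraries at the same listed 0, that ratio is 1.0 whatever the value of the other library, so Dixon's critical value does not apply and the library is not shown to stand apart.

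The effect of time on Arntl differed between WT ADX and WT sham by 4.62 on the log2 scale, and that on Clock by 0.65, each by the test of the difference in limma (adjusted p = 0.0326 and 0.00633). In RE-RE mice the Arntl time effect differed between ADX and sham by 7.09 (adjusted p = 0.00257). In all 3 cases the fall at ZT12 was smaller after adrenalectomy.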

How the results depend on the processing

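No called difference of a member changed direction under the alternatives run, and without the filter on low values or with equal library medians no member's call changed. Values are log2 differences, and a call means an adjusted p under 0.05. On log2(FPKM + 0.1), calls were gained for Arntl between ZT12 and ZT0 in WT ADX (-2.0), WT ADX+ADR (-1.5) and RE-RE ADX (-2.08). At ZT0 they were also gained for Arntl in WT ADX against WT sham (-1.19), and further for WT ADX+ADR against WT ADX at ZT0 (1.22) and ZT12 (1.73), and WT ADX+DEX against WT ADX at ZT0 (1.67) and ZT12 (1.56), and for Npas2 in WT ADX+DEX against WT ADX at ZT0 (0.45). On log2(FPKM + 1) these same comparisons gave -1.59, -1.37, -1.68, -1.09, 1.13, 1.35, 1.55, 1.2 and 0.15, all called. Also gained there were Npas2 between the times in RE-RE sham (-0.23) and Arntl at ZT0 in RE-RE ADX against RE-RE sham (-0.59) and WT ADX+DEX against WT ADX+ADR (0.42). Lost there were Arntl in RE-RE sham against WT sham (-0.33) and Npas2 in WT ADX+DEX against WT ADX+ADR (0.05), both at ZT12.

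With values at 0 set to missing, Arntl calls were gained at -2.06, -1.51, -2.13, -1.2, 1.24, 1.79, 1.68 and 1.61 for the 8 Arntl comparisons named first, and Arntl in RE-RE sham against WT sham at ZT12 was lost (-0.29). In a model of only the compared groups, the gained calls of Arntl were -2.06 and -1.51 between the times in WT ADX and WT ADX+ADR, -1.2 at ZT0 in WT ADX against WT sham, 1.24 and 1.79 with adrenaline and 1.68 and 1.61 with dexamethasone against WT ADX at ZT0 and ZT12, and 0.44 and -0.18 between the hormones. Npas2 with dexamethasone against WT ADX at ZT0 was gained too (0.56). Lost were Clock between the times in WT ADX (-0.63) and RE-RE ADX (-0.61), Clock in RE-RE ADX against RE-RE sham at ZT0 (-0.34), Arntl at ZT12 in RE-RE sham (-2.75) and WT ADX (3.43) against WT sham, Npas2 between the hormones at ZT12 (1.05), and the differences of time effects, WT ADX minus WT sham for Arntl (4.62) and Clock (0.65) and RE-RE ADX minus RE-RE sham for Arntl (7.09). This alternative leaves fewer samples to estimate the spread. With age as a covariate, Arntl between the times in WT ADX+DEX (-2.1) and Clock in RE-RE sham against WT sham at ZT12 (0.26) were lost, and no other member call changed.

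Without the 7 libraries that stand apart, lost were Clock between the times in RE-RE ADX (-0.41), Clock in RE-RE ADX against RE-RE sham at ZT0 (-0.45), Clock in RE-RE sham against WT sham at ZT12 (0.25), Npas2 at ZT0 between the hormones (-0.80) and in WT ADX against WT sham (-1.02), and the Arntl difference of time effects in WT (3.24). Gained were Arntl with dexamethasone against WT ADX at ZT0 (1.68) and ZT12 (1.61), and with adrenaline at ZT12 (1.79).

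Mice with the same replicate number were compared as possible pairs. No comparison had every pair's correlation of deviations over 0.1, and the pairs ran from -0.0977 to 0.219. In WT ADX against WT sham at ZT0, 2 of 3 pairs were over 0.1. Mice with unlike numbers were not compared in this way, so whether the numbers pair the mice was not settled. With the replicate number as a block and only the groups compared, lost were Clock at ZT0 in RE-RE ADX against RE-RE sham (-0.34), WT ADX against WT sham (-0.46), WT ADX+ADR against WT ADX (0.39) and between the hormones (0.23). At ZT12, lost under the block were Clock in RE-RE sham against WT sham (0.30), WT ADX+ADR against WT ADX (0.38) and between the hormones (0.27), and Arntl in RE-RE sham against WT sham (-2.75), WT ADX against WT sham (2.25) and RE-RE ADX against RE-RE sham (6.45). Npas2 was lost under the block at ZT0 in WT ADX against WT sham (-1.02) and between the hormones at ZT12 (1.05). Gained under the block were Arntl between the hormones at ZT0 (0.44), with adrenaline against WT ADX at ZT0 (1.21) and ZT12 (1.6), and with dexamethasone at ZT0 (1.72) and ZT12 (1.47). The number of genes called in WT ADX against WT sham at ZT0 was 7 with the block and 2130 without it in a model of only those groups, and 3838 in the model of all groups.

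Leaving out 1 library at a time kept the direction of every called member difference. Differences of time effects near 0 that were not called crossed it, from -0.24 to 0.09 for Arntl in WT ADX+DEX minus WT ADX, and for Clock from -0.08 to 0.15 there and from -0.12 to 0.11 in WT ADX+ADR minus WT ADX. Arntl ranged from -2.17 to -2.08 between the times in WT ADX+DEX, from -4.09 to -2.01 in RE-RE sham against WT sham at ZT12, from -3.88 to -1.79 for the RE-RE sham minus WT sham time effect (called only without WT sham ZT12 replicate 8, adjusted p = 0.0395), and from 3.28 to 5.37 for the WT ADX minus WT sham time effect. Clock ranged from -0.39 to -0.27 in RE-RE ADX against RE-RE sham at ZT0, from 0.20 to 0.27 and 0.22 to 0.32 between the hormones at ZT0 and ZT12, and from 0.26 to 0.35 in RE-RE sham against WT sham at ZT12. Npas2 ranged from -0.88 to -0.68 between the hormones at ZT0 and from 0.51 to 1.43 at ZT12. These comparisons changed a call in at least 1 such run.

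Counts of called genes moved by over 1.5 times in several settings. The RE-RE ADX time comparison called 93 genes, 53 with age as a covariate, 0 when the 7 libraries were left out, and 1 with only its groups in the model. The WT ADX time comparison called 1322 genes, and 44 with only its groups. Without the 7 libraries, 1295 genes were called between the times in WT sham, against 2818 with them. Depth per library is unknown, and levels of Npas2 in WT muscle lie near the bottom of the table.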

Other observations

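Miga2, the gene with the level pattern most like Arntl, also had a smaller contrast of times after adrenalectomy. In WT ADX against WT sham it was lower at ZT0 by -0.44 ± 0.13 (adjusted p = 0.0113) and higher at ZT12 by 0.44 ± 0.12 (adjusted p = 0.00793). In RE-RE ADX against RE-RE sham it was higher at ZT12 by 0.52 ± 0.12 (adjusted p = 0.012), and its ZT0 difference of -0.20 ± 0.12 missed the threshold (adjusted p = 0.351). Since Miga2 was picked for its likeness to Arntl over the same group means, these values are a description. Nfil3 was at 38.2 to 53.4 FPKM in WT ADX+DEX at ZT0, against 2.89 to 5.84 FPKM in WT ADX and 8.72 to 20.6 FPKM in WT sham at that time.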
